A study of Rattus norvegicus with 71 samples.

Results

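DNA repair genes, among them Polq, were examined in the brains of 71 newborn rats, for the level of each repair pathway at this age and for differences after gestational exposure to maternal autoantibodies. The genes were taken by symbol from a list of 44 that covers homologous recombination, the Fanconi anaemia pathway, damage signalling, end joining, base excision and single-strand break repair, nucleotide excision repair, mismatch repair and translesion synthesis. Of these, 36 had a row among the 17494 genes of the count table, and all 36 passed the filter on low counts in every comparison. Atr, Blm, Ercc5, Fanci, Fancm, Msh6, Wrn and Xrcc3 were not analysed here.

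The animals were wild-type Sprague-Dawley pups of postnatal day 2 (PND2), 35 male and 36 female from 27 litters, and 1 poly-A RNA library per animal came from a 150 um coronal brain slice holding the hippocampus with neighbouring cortical and subcortical structures. Their dams were immunized before breeding with Freund's adjuvant plus peptides of the antigens that name each maternal autoantibody-related autism (MARA-AB) pattern, or with adjuvant and saline only (controls). The patterns were CRMP1+CRMP2 (8 animals, 4 litters), LDHA/B+CRMP1+STIP1 (25 animals, 9 litters), CRMP1+GDA (6 animals, 3 litters) and STIP1+NSE (8 animals, 4 litters), set against 24 control animals from 7 litters. The sample titles fall into 2 series that the study handled and sequenced apart. In the first series 12 animals were controls and 16 had LDHA/B+CRMP1+STIP1 exposure. The MAR_C3 series had a further 12 controls, 9 animals of that same pattern, and every animal of the remaining patterns. Littermates share a dam and therefore an exposure, so p-values over animals also carry differences between litters. Libraries held 2.49e+07 to 3.62e+07 counts, so that a level of 1 CPM, a count scaled to a common library size, stood for 24.9 to 36.2 counts. Neuron markers summed to 6673 to 9519 CPM in every slice, and choroid plexus markers, a tissue beside the hippocampus, varied from 4.71 to 3384 CPM.

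Cells meet broken DNA with several routes. A double-strand break can be copied back from the sister chromatid by homologous recombination, which needs Brca1, Brca2, Palb2 and the break sensor Rad50-Nbn and acts in dividing cells. It can also be rejoined by non-homologous end joining through Xrcc5, Xrcc6, Prkdc, Xrcc4 and Lig4, the route that neurons keep after their last division, or by DNA polymerase theta, the product of Polq, which joins ends at short stretches of matching sequence. Damaged single bases and nicks are handled by base excision and single-strand break repair, bulky lesions and stalled transcription by nucleotide excision repair, and replication errors by mismatch repair. Proliferating progenitors of the fetal and newborn brain depend on these routes, and loss of end joining or single-strand break repair genes harms the developing nervous system.

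Promoters of Polq and of the 2 genes with the steepest slope on the level of cell cycle genes, described further on, are shown because expression in dividing cells is often driven through E2F, CHR (cell cycle homology region) and CCAAT elements. Each sequence is from RefSeq on build GRCr8 and runs from 250 bases before the annotated start to 50 bases after it. Capitals mark every match to the letters TTTCCCGC or TTTGGCGC (E2F), TTTGAA (CHR) or CCAAT on either strand.
Polq, chr11:77281219-77281518, minus strand: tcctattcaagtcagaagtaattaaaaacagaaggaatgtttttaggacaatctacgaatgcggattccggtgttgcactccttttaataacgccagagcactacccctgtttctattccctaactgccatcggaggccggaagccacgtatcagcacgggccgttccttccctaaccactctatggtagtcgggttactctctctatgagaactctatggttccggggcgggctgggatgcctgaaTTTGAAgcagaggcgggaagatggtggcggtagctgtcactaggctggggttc
Brca1, chr10:86977532-86977831, minus strand: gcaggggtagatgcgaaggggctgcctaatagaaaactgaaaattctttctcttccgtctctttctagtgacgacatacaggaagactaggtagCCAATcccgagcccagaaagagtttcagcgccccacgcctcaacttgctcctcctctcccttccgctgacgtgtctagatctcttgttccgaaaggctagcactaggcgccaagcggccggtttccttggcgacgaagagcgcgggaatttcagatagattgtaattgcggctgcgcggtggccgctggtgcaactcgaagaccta
Fancd2, chr4:148234458-148234757, plus strand: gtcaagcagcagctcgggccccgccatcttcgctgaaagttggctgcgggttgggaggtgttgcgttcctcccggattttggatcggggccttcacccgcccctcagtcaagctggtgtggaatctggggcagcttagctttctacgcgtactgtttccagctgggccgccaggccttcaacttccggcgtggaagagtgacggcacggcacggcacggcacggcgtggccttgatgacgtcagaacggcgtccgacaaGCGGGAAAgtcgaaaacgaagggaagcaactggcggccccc
The Polq window held TTTGAA, starting 3 bases before the annotated start. The Brca1 window held CCAAT 156 bases before it. The Fancd2 window held GCGGGAAA, the E2F letters read on the other strand, starting 9 bases after it. Of the 36 genes, 31 had a promoter in the RefSeq table. The E2F letters stood in 2 of these 31 (6.45%), Atm and Fancd2, and in 1.53% of all 27457 promoters. TTTGAA stood in 5 (16.1%) and in 18.1% of all promoters, and CCAAT in 13 (41.9%) and in 37.7%. A match to these letters describes the sequence only.

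The repair genes spanned a wide range of levels. In CPM per kilobase of exon (RPKM), their means over 71 animals ran from 0.342 for Polq to 68.1 for Apex1, with a median of 7.28 against 13.3 for the 12474 genes with at least 1 CPM in 8 animals. Of the pathways with 3 or more genes, base excision and single-strand break repair had the highest median, 15.99 RPKM over 8 genes, and damage signalling, with 2 genes far apart, had 27.4. Apex1, the endonuclease that cuts DNA at sites without a base, reached 68.1 ± 6.81 RPKM (SD, n = 71), the scaffold Xrcc1 39.1 ± 6.65 and the break sensor Parp1 30.96 ± 2.499. Ung, which removes uracil, was the lowest of this pathway at 3.69 ± 0.705 RPKM.

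In damage signalling, Tp53bp1, which steers breaks toward end joining, was the second most abundant gene of all at 51.5 ± 6.42 RPKM, whereas the kinase Atm reached 3.34 ± 0.736. Nucleotide excision repair had a median of 8.94 RPKM over 7 genes, from 23.9 ± 3.78 for the nuclease subunit Ercc1 to 3.32 ± 0.596 for Ddb2, which recognises ultraviolet damage. The end joining genes Xrcc6 (10.7 ± 1.11 RPKM), Xrcc4 (9.46 ± 1.45) and Xrcc5 (8.45 ± 1.02) lay within about 1 SD of their neighbours, and Lig4 followed at 5.49 ± 0.786 and Prkdc at 2.81 ± 0.704. Polq stood last in this pathway and among all 36 genes at 0.342 ± 0.183 RPKM. On build rn7 its gene spans chr11:63673816-63775878 on the minus strand, with 30 exons and 8527 exonic bases. In mismatch repair, Pms2 reached 11.15 ± 1.13 RPKM, Msh3 5.04 ± 0.758 and the nuclease Exo1 0.501 ± 0.134.

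Homologous recombination split into a high and a low part. Nbn and Rad50, which also serve damage signalling in cells that do not divide, stood at 11.1 ± 1.14 and 6.29 ± 1.18 RPKM. Xrcc2 (2.52 ± 0.406), Rad54l (1.28 ± 0.313), Palb2 (1.06 ± 0.229), Brca2 (1.05 ± 0.263) and Brca1 (1.05 ± 0.270) were lower, and the last 3 could not be ordered within their spread. The Fanconi anaemia genes Fanca and Fancd2 lay at 3.19 ± 0.684 and 2.06 ± 0.478 RPKM, and the ubiquitin ligase Rad18, the only translesion synthesis gene, at 5.84 ± 1.21. In bulk slices, fewer cells of a type and less RNA per cell cannot be told apart, so low levels of genes used in dividing cells do not say how much each such cell holds. The plot of levels by pathway shows these ranges.

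**Figure D1:**
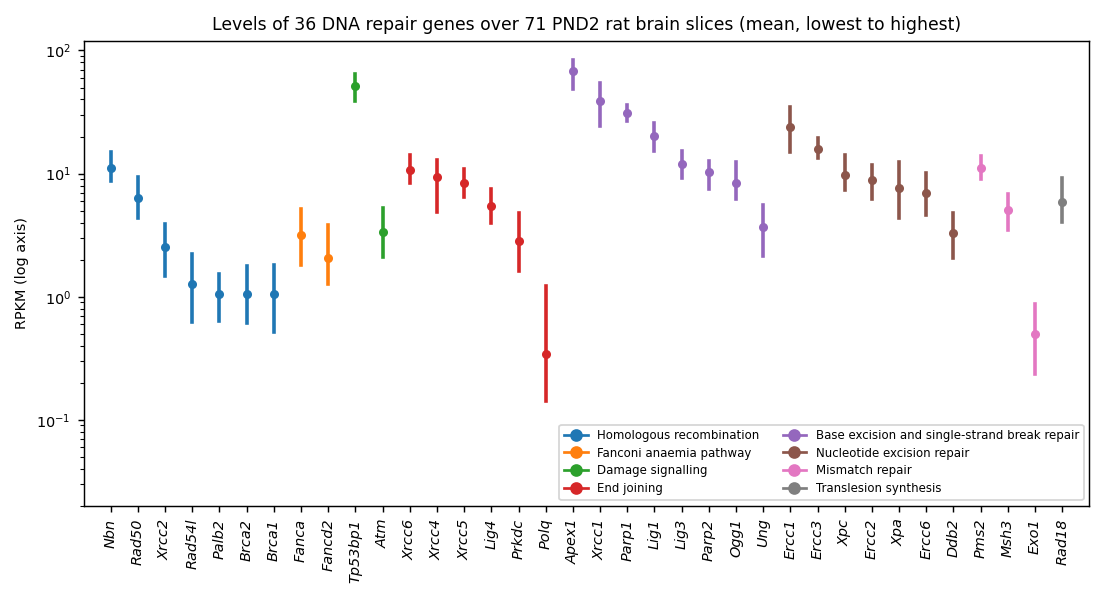
Mean RPKM (point) and the range from the lowest to the highest animal (bar) for each of 36 repair genes over 71 animals, on a log axis and grouped by pathway. Apex1 and Tp53bp1 stand highest and Polq and Exo1 lowest.

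The general comparison asked whether exposure to any MARA-AB pattern moved repair genes. None of the 36 repair genes passed FDR < 0.1 in 47 exposed against 24 control animals by edgeR's quasi-likelihood test, and 0.0321% of the 12477 genes tested did (4 genes). At an unadjusted p under 0.05 there were 3 repair genes, Polq, Ercc3 and Msh3, and 10.3% of all genes. DESeq2 and the fit without a filter on low counts each called 1, Polq. Of the 36 genes, 22 had a higher and 14 a lower fitted value in exposed animals, and their median log2 fold change (log2FC) of 0.02 lay near the 0.00 of all genes. No pathway held more than 1 gene at p under 0.05.

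Polq had the largest fold change of the 36. Its level in control animals ran from 1.21 to 4.22 CPM with a median of 1.93, and in exposed animals from 1.27 to 10.3 with a median of 2.68. The groups overlapped, and 11 of 47 exposed animals lay above the highest control. The log2FC was 0.64 (SE = 0.15, p = 6.83e-05, FDR = 0.156 by edgeR), a 1.56-fold higher fitted level. Polq is among the genes that the study itself picked out on these animals, so this is not independent evidence of its direction. Its libraries held only 38 to 282 counts of it, with a median of 68.

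The highest values of Polq sat in a few litters, as the plot of Polq by litter shows. Both pups of the STIP1+NSE litter 9_7 stood above all other animals, at 7.47 and 10.3 CPM. A pup of the LDHA/B+CRMP1+STIP1 litter 9_9 followed at 6.67 CPM with its littermate at 2.98, then a pup of the CRMP1+GDA litter 9_8 at 5.82 with its littermate at 2.83. Litter 9_14 of LDHA/B+CRMP1+STIP1 held 4.41 and 5.76 CPM. Litter means of controls ran from 1.71 to 2.60 CPM over 7 litters. All 4 litters of CRMP1+CRMP2, 6 of 9 of LDHA/B+CRMP1+STIP1, 1 of 3 of CRMP1+GDA and 1 of 4 of STIP1+NSE lay above the highest control litter. Of the sum of squares of log2 Polq left within group and series, a share of 0.625 lay between litters, against a median of 0.469 over all genes. With so few pups per litter, such a share is positive even where litters do not differ. With litter as a random effect, the correlation of littermates over all genes was 0.3 in the general comparison.

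Over litters, mean log2 CPM of Polq was higher by 0.58 in 20 exposed than in 7 control litters (exact permutation test, two-sided p = 0.0158, or 0.0499 with Benjamini-Hochberg adjustment over the 11 such tests of Polq). Within the MAR_C3 series alone the difference was 0.65 over 16 against 4 litters (exact permutation p = 0.0667, adjusted p = 0.0917). The adjusted values here and below cover these 11 tests alone, not the choice of Polq from all genes. The 11 tests share litters, so they are not independent of each other. Permutations over both series did not take the series of a litter into account. Without litter 9_7 the fitted log2FC over animals was 0.54 (FDR = 0.228), and without 5 animals with the pineal gene Crx over 1 CPM it was 0.61 (FDR = 0.231). Adding the level of cell cycle markers to the fit gave 0.64 (FDR = 0.126).

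**Figure D2:**
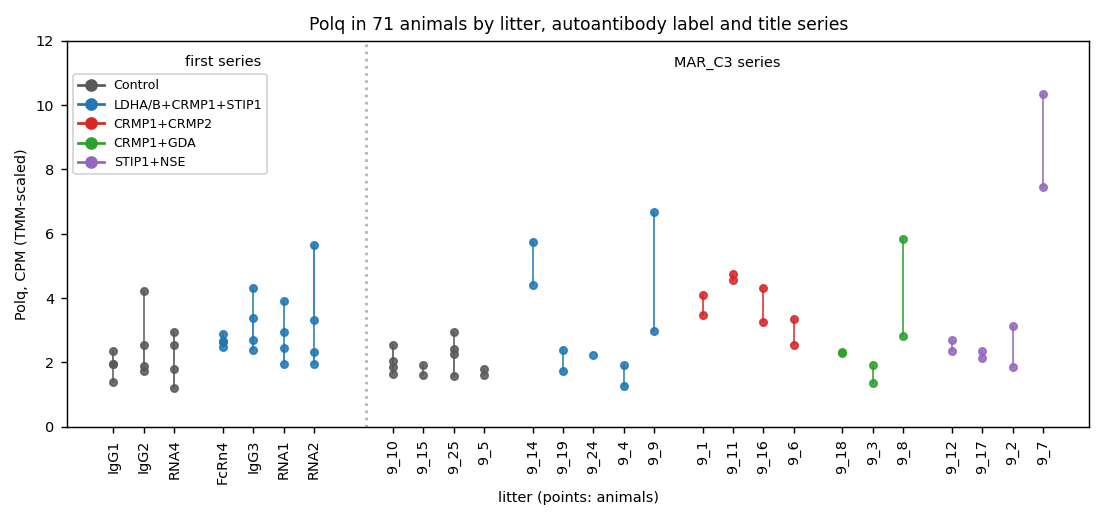
Polq in CPM for each of 71 animals (points), joined within litters (lines) and coloured by autoantibody label, with the first title series on the left and MAR_C3 on the right. Control litters have means of 1.71 to 2.60 CPM, and litter 9_7 of STIP1+NSE stands highest at 7.47 and 10.3 CPM.

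Ercc3, the helicase of the repair and transcription factor TFIIH that opens DNA around a bulky lesion, was the gene next to Polq in p. It ran from 38.3 to 51.2 CPM in controls with a median of 43.1, and from 34.8 to 46.0 in exposed animals with a median of 40.8. No exposed animal lay above the highest control, and 8 of 47 lay below the lowest. These ranges pool both series, and controls of MAR_C3 alone ran from 38.6 to 46.1 CPM. The log2FC was -0.09 (SE = 0.03, p = 0.00105, FDR = 0.234). Msh3, which recognises small loops left by replication, had a log2FC of 0.09 (SE = 0.04, p = 0.0430, FDR = 0.468).

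Offspring exposed to CRMP1+CRMP2 autoantibodies showed the most repair genes past the threshold. Polq, Atm, Lig3, Msh3 and Prkdc rose, 5 of 36 genes at FDR < 0.1 and all of them higher, and 11.4% of the 12691 genes tested were called (1445 genes). At an unadjusted p under 0.05 there were 10 repair genes, 8 higher and 2 lower, and 24.4% of all genes. Of all genes tested, 4.83% were called higher and 6.56% lower, and those at p under 0.05 were 1425 higher and 1668 lower. Of the 36 repair genes 5 were called higher and none lower. Among these, Polq, Atm and Prkdc lie in the class of longest exon length, described below, where 13.7% of genes were called higher and 0.946% lower. By pathway, end joining had 2 called genes of 6, and damage signalling (1 of 2), base excision and single-strand break repair (1 of 8) and mismatch repair (1 of 3) had 1 each. Homologous recombination, nucleotide excision repair, the Fanconi anaemia pathway and translesion synthesis had none. The median log2FC over the 36 genes was 0.09, against 0.01 for all genes.

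Polq ran from 2.55 to 4.74 CPM in the 8 CRMP1+CRMP2 animals with a median of 3.78, and 3 of the 8 lay above the highest of all 24 controls. Against the 12 controls of their own series, which ran from 1.57 to 2.94, 7 of the 8 lay above the highest. The log2FC was 0.87 (SE = 0.17, FDR = 0.00391), a 1.83-fold higher level. Over litters, the 4 exposed lay above all 7 control litters (exact permutation two-sided p = 0.00303, the smallest this design can give, adjusted p = 0.0333). Of these control litters 3 were of the first series, and the permutation did not take series into account. Within MAR_C3 the difference was 0.94 in 4 against 4 litters (exact permutation p = 0.0286, again the smallest, adjusted p = 0.0499). Leaving out any 1 of the 4 litters gave log2FCs from 0.77 to 0.99 with FDR of at most 0.0278.

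Atm, the kinase that signals double-strand breaks, ran from 26.1 to 51.0 CPM with a median of 37.6, against 20.5 to 50.6 with a median of 31.5 in controls. The groups overlapped, with 1 of 8 animals above the highest control, and the fitted log2FC was 0.37 (SE = 0.11, FDR = 0.0457). Prkdc, the catalytic subunit of the kinase that holds broken ends for joining, ran from 27.9 to 60.7 CPM against 20.6 to 52.4 in controls (log2FC = 0.34, SE = 0.12, FDR = 0.0880). Its highest litter, 9_6 with a mean of 53.2 CPM, was also the highest of the pattern for Atm (47.8 CPM), and litter 9_16 was the lowest for both (27.2 CPM for Atm and 28.6 for Prkdc). Without litter 9_6, Atm had a log2FC of 0.28 (FDR = 0.375) and Prkdc of 0.20 (FDR = 0.594). Against controls of their own series, 4 of the 8 animals lay above the highest for Atm (39.8 CPM) and 3 for Prkdc (42.8 CPM).

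Lig3, the ligase that seals nicks with Xrcc1, ran from 44.3 to 58.9 CPM against 39.7 to 54.6 in controls (log2FC = 0.16, SE = 0.05, FDR = 0.0736). Msh3 had a median of 18.6 CPM against 18.3 in controls, with 2 of 8 animals above the highest control of 23.3 (log2FC = 0.20, SE = 0.07, FDR = 0.0805). Against controls of MAR_C3 alone, 3 of the 8 lay above the highest for Lig3 (49.6 CPM) and 2 for Msh3 (22.4 CPM). Among genes that missed the threshold, Xrcc4, the partner of the ligase Lig4, had a log2FC of -0.25 (FDR = 0.121), Fanca 0.30 (FDR = 0.125), Ercc3 -0.10 (FDR = 0.179), the transcription-coupled repair gene Ercc6 0.22 (FDR = 0.190) and Ddb2 0.20 (FDR = 0.194). The plot of fold changes by pattern shows Polq as the repair gene with the largest fitted value in all 4 patterns, which share their controls.

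**Figure D3:**
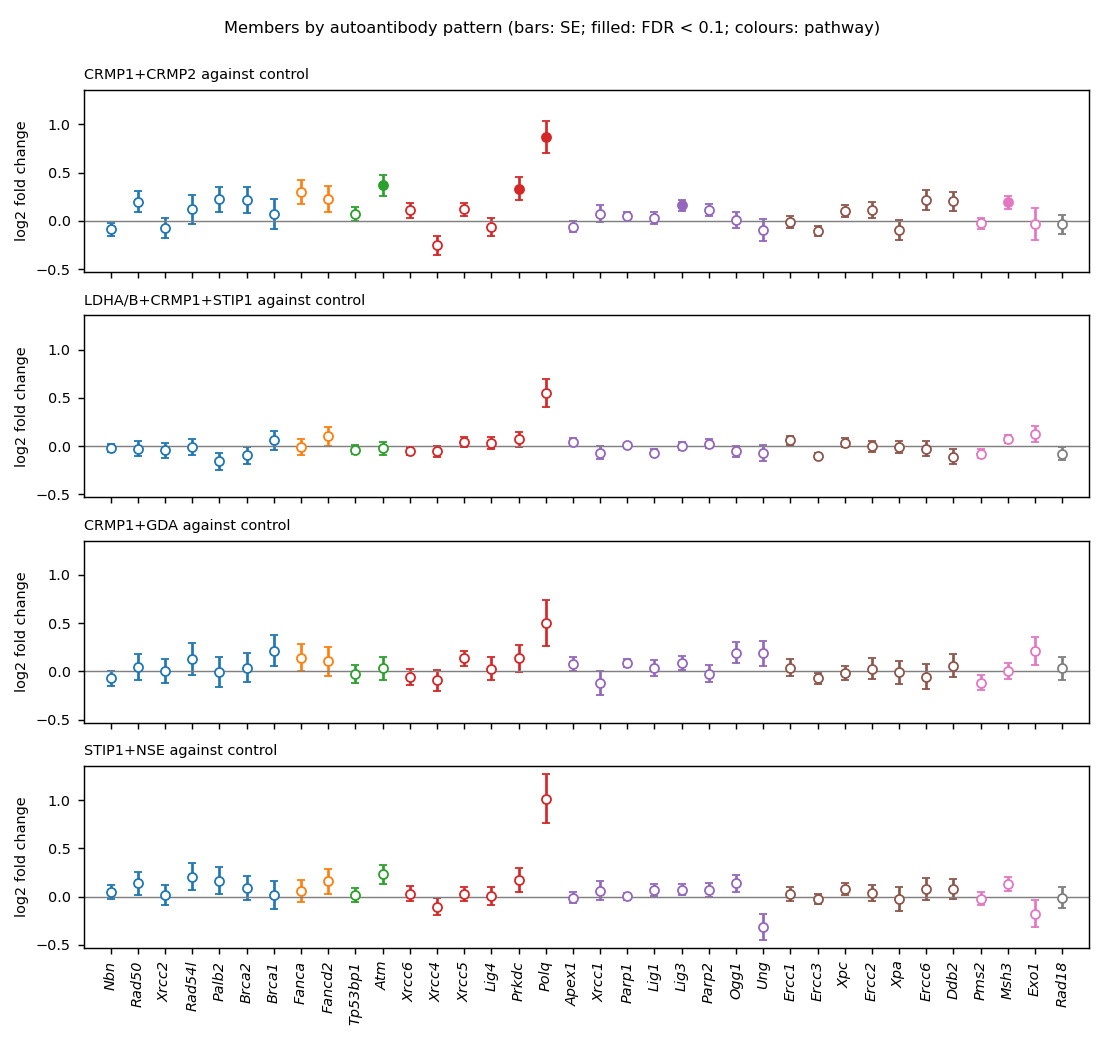
Fitted log2 fold change against 24 controls (point) with its SE (bar) for each of 36 repair genes in the 4 autoantibody patterns, ordered and coloured by pathway, filled where FDR < 0.1. Filled are 5 genes in CRMP1+CRMP2 and none in the other patterns, and Polq has values of 0.87, 0.55, 0.50 and 1.01.

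The calls in CRMP1+CRMP2 varied with the litters, the controls and the marker levels in the fit. Polq was the only call without litter 9_6, without litter 9_11, with litter as a random effect, and when these animals were fitted with MAR_C3 controls alone (log2FC = 0.91, FDR = 0.0393). The counts of calls were 7 without litter 9_1 and 8 without litter 9_16. No gene of the 36 was called when counts were summed per litter, where 0 genes of all were called by edgeR and Polq had a log2FC of 0.98 (p = 1.91e-04). Of 7 pineal markers 6 were tested and 5 rose, among them the photoreceptor and pineal factor Crx (log2FC = 7.33), and their summed level ran from 9.26 to 262 CPM against 5.92 to 15.8 in controls. Crx was at 0 counts in 20 of 24 controls and 5 of 8 CRMP1+CRMP2 animals, with a highest control of 0.140 CPM and a highest exposed animal of 12.8. Tph1, an enzyme on the route to melatonin, reached 1.64 CPM in controls and 189 in CRMP1+CRMP2. With the pineal marker level in the fit, 0 of the 36 repair genes and 1 gene of all were called, and Polq kept a log2FC of 0.90 (FDR = 0.102). Without the animals with Crx over 1 CPM (2 of the 8), 2 repair genes were called, Polq (log2FC = 0.86, FDR = 0.0517) and Atm (log2FC = 0.42, FDR = 0.0807).

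The other marker lists bear on what the slices held. All 8 choroid plexus markers rose in CRMP1+CRMP2 against controls of both series (median log2FC = 1.92). Their summed level ran from 199 to 3384 CPM, against 9.95 to 2903 in controls and 146 to 2903 in controls of MAR_C3 alone. In the single fit of the MAR_C3 series, described below, 0 of these 8 markers were called (median log2FC = 0.53). With the choroid plexus level in the fit, 8 repair genes were called. Called lower were 2 of 8 neuron markers (Stmn2 and Syt1), 2 of 7 oligodendrocyte lineage markers (Sox10 and Olig1) and 1 of 8 radial glia and astrocyte markers (Sox2). Of 8 erythroid markers 1 was called higher (Hbb). By fitted value, called or not, neuron markers had 4 higher and 4 lower and oligodendrocyte lineage markers 4 higher and 3 lower. Radial glia and astrocyte markers had 2 higher and 6 lower, and erythroid markers 8 higher. In the single MAR_C3 fit no marker of these lists was called. No cell cycle (19 tested), microglia (8) or endothelial marker (6) passed the threshold. The part of tissue content in the repair gene values was not tested beyond these fits.

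Fold changes of repair genes went with the exon length of the gene, in some comparisons more than in others. In CRMP1+CRMP2, Spearman's rho between exon length and log2FC was 0.65 over the 36 repair genes and 0.30 over all 12691 genes, which share the same libraries. Of the 8 repair genes with over 5000 exonic bases (Atm, Brca1, Brca2, Ercc6, Exo1, Polq, Prkdc and Tp53bp1), 7 had a higher fitted value with a median log2FC of 0.22, and of the 16 under 3000 bases 7 had, with a median of -0.02. Of all genes in 10 length classes of equal size, the longest class had a median log2FC of 0.11 and the shortest -0.10. In the longest class 13.7% of genes were called higher and 0.946% lower, and in the shortest 1.57% higher and 12.3% lower. Polq, Atm and Prkdc, at 8527, 9756 and 12752 bases, lie in the longest class. Polq had a log2FC of 0.87, and its length class had a median of 0.11 and an upper quartile of 0.21, as the plot of fold change by length shows. How many genes of the class reach the value of Polq was not counted. In the general comparison rho was 0.55 over the 36 genes and 0.18 over all genes, and in STIP1+NSE 0.47 and 0.18. It was weaker in LDHA/B+CRMP1+STIP1 (0.26 and 0.02) and in CRMP1+GDA (0.24 and -0.06). The part of length, RNA quality or library making in these values was not tested.

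**Figure D4:**
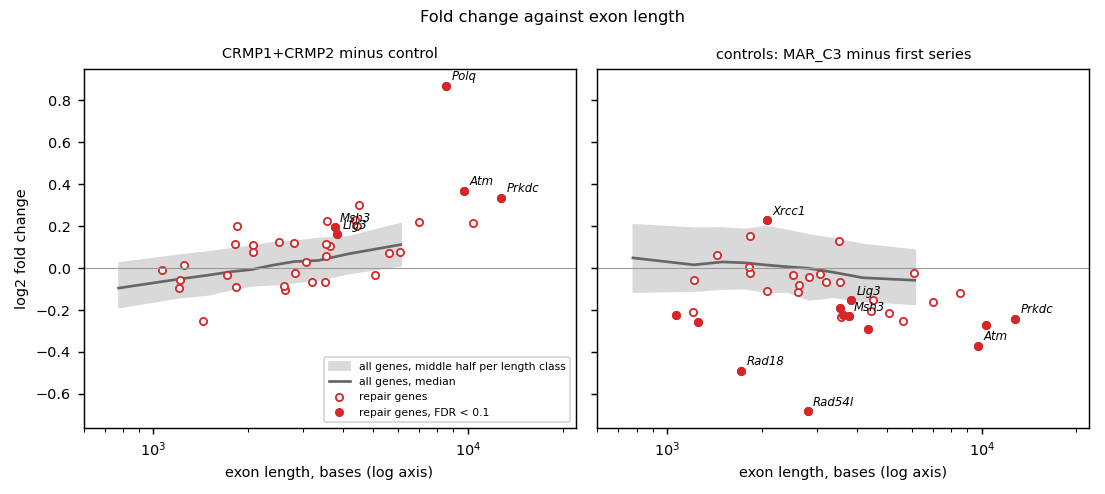
Fitted log2 fold change against exon length (log axis) for 36 repair genes (red, filled where FDR < 0.1) and for all genes in 10 length classes (line: median, band: quartiles). Left, CRMP1+CRMP2 minus control, where values climb with length. Right, control animals of MAR_C3 minus those of the first series, where they decline with it.

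LDHA/B+CRMP1+STIP1 was the only pattern present in both title series. None of the 36 repair genes passed FDR < 0.1 in 25 exposed against 24 control animals by edgeR or DESeq2, and 0.0157% of 12700 genes did by edgeR. Polq and Ercc3 had an unadjusted p under 0.05, as 7.17% of all genes had. Polq ran from 1.27 to 6.67 CPM with a median of 2.68 (log2FC = 0.55, SE = 0.15, FDR = 0.215), and 5 of 25 animals lay above the highest control. Over litters its difference was 0.49 in 9 against 7 (exact permutation two-sided p = 0.0317, adjusted p = 0.0499). By series it was 0.45 in 4 against 3 litters of the first (exact permutation p = 0.0286, the smallest possible there, adjusted p = 0.0499) and 0.51 in 5 against 4 of MAR_C3 (exact permutation p = 0.286, adjusted p = 0.314). Ercc3 had a log2FC of -0.10 (SE = 0.03, FDR = 0.327), close to its value in CRMP1+CRMP2, and both comparisons share their controls.

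Within the first series, 16 exposed against 12 control animals, none of the repair genes was called and 0.0161% of all genes were. Exo1 (log2FC = 0.32), Ercc3 (-0.12), Polq (0.45) and Brca1 (0.24) had p under 0.05, as 5.45% of all genes had. Exo1, a nuclease of mismatch repair and of break resection, ran from 1.87 to 3.04 CPM in these controls and from 2.33 to 4.41 in exposed animals, 9 of 16 of which lay above the highest control. Within MAR_C3, 9 against 12 animals, none of the repair genes was called (0% of all genes), and Polq alone had p under 0.05 (log2FC = 0.69, FDR = 0.872), as 5.62% of all genes had. The difference between the series was itself tested. None of the 36 repair genes passed FDR < 0.1 for it, and 0.11% of all genes did. Brca1 (-0.40, MAR_C3 minus first, p = 0.0301) and Exo1 (-0.36, p = 0.0467) had p under 0.05, as 3.05% of all genes had, while Polq differed by 0.26 (SE = 0.30, p = 0.393).

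In CRMP1+GDA none of the repair genes was called, and 0% of the 12641 genes tested were, by edgeR as by DESeq2. Polq (log2FC = 0.50, p = 0.0413) and Parp1 (0.09, p = 0.0498) had p under 0.05, as 3.65% of all genes had. Polq ran from 1.36 to 5.82 CPM over 6 animals, and over litters its difference was 0.31 in 3 against 7 (exact permutation p = 0.283) and 0.36 in 3 against 4 of MAR_C3 (exact permutation p = 0.371). The value rested on litter 9_8, without which the log2FC was -0.02 (p = 0.949), and Parp1 was then 0.02.

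In STIP1+NSE none of the repair genes was called by edgeR or DESeq2, and 0.0474% of 12660 genes were. Polq (log2FC = 1.01, SE = 0.26, FDR = 0.333), Ung (-0.31, SE = 0.13, FDR = 1.00) and Atm (0.23, SE = 0.10, FDR = 1.00) had p under 0.05, as 3.19% of all genes had. Polq ran from 1.84 to 10.3 CPM with a median of 2.52. Over litters its difference was 0.72 in 4 against 7 (exact permutation p = 0.0121, adjusted p = 0.0499) and 0.77 in 4 against 4 of MAR_C3 (exact permutation p = 0.0286, adjusted p = 0.0499). Without litter 9_7 its log2FC was 0.26 (p = 0.211), and without litter 9_2 or 9_17 it passed the threshold (1.19 with FDR = 0.0853, and 1.21 with FDR = 0.0940). Ung ran from 4.33 to 7.40 CPM against 4.07 to 9.67 in controls, and its groups overlapped. Pineal markers rose here also (3 of 6 tested, summed level from 6.61 to 95.9 CPM). The median of this sum was 10.1 CPM against 8.34 in controls. Crx was over 1 CPM in 2 of the 8 animals and at 0 counts in 5.

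A single fit of all 43 MAR_C3 animals set each pattern against the 12 controls of the same series. For CRMP1+CRMP2 none of the repair genes was called by edgeR and 1, Polq, by DESeq2, while 0.785% of 12738 genes were called by edgeR. Polq (log2FC = 0.89), Atm (0.42), Fancd2 (0.35), Lig3 (0.19), Rad50 (0.26), Prkdc (0.37), Fanca (0.31), Rad54l (0.27) and Msh3 (0.21) had p under 0.05, as 18.5% of all genes had. For STIP1+NSE none was called (0% of all genes, by DESeq2 too), and Polq (1.01) and Ung (-0.27) had p under 0.05, as 2.27% of all genes had. For CRMP1+GDA none was called by edgeR or DESeq2 (0% of all genes by edgeR) and none had p under 0.05, as 4.77% of all genes had, with Polq at 0.46 (p = 0.159). An F test over the 4 patterns called none of the repair genes (0% of all genes). Ung (p = 0.00624) and Xrcc6 (p = 0.0441) had p under 0.05 in it, as 7.03% of all genes had, and Polq had p = 0.397, so that a difference in Polq between patterns was not shown.

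The controls of both title series, which shared no exposure, differed in more repair genes, and in more of all genes, than any contrast of exposure called. In 12 MAR_C3 against 12 first-series controls, 13 of 36 repair genes passed FDR < 0.1, and 5218 of the 12565 genes tested did. Of the 13 repair genes 12 were lower in MAR_C3, where 20.2% of all genes were called lower. The remaining 1 was higher, where 21.3% of all genes were called higher. Of the 36 genes, 31 had a lower and 5 a higher fitted value, and the median log2FC was -0.15 against 0.00 for all genes. Every pathway had at least 1 gene called lower.

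Rad54l, a motor protein of homologous recombination, had the largest log2FC and fell. It ran from 3.29 to 6.19 CPM in first-series controls and from 1.75 to 3.45 in MAR_C3 controls (log2FC = -0.68, SE = 0.13, FDR = 1.70e-04). Rad18 ran from 8.89 to 15.7 CPM and from 6.99 to 11.4 (log2FC = -0.49, SE = 0.10, FDR = 3.33e-04). Parp1 had the smallest p, from 107 to 123 CPM in the first series and from 96.2 to 112 in MAR_C3 (log2FC = -0.19, SE = 0.03, FDR = 7.17e-05). The groups overlapped for all 3. Atm (-0.37), Fancd2 (-0.29), Brca2 (-0.27), Ogg1, which removes oxidised guanine (-0.26), Prkdc (-0.24), Msh3 (-0.23), Ercc1 (-0.22), the damage sensor Xpc (-0.22) and Lig3 (-0.15) fell too, and Xpa (-0.21, FDR = 0.110) missed the threshold. Exons of Rad54l share 20 bases with Lrrc41, those of Ogg1 9 with Camk1 and those of Ercc1 106 with Polr1g, and whether counting used strand is not given in the sources used here.

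Xrcc1 alone rose (log2FC = 0.23, SE = 0.09, FDR = 0.0537), from 55.3 to 93.6 CPM in the first series and from 65.1 to 113 in MAR_C3. Without litter 9_10 its log2FC was 0.05 (FDR = 0.646). Polq had a log2FC of -0.12 (SE = 0.18, FDR = 0.649). With litter as a random effect 5 genes were called, Atm, Parp1, Rad18, Rad54l and Xpc, and with counts summed per litter also 5, with Ercc1 in place of Xpc. Leaving out 1 of the 7 litters gave 6 genes (without RNA4) to 19 (without 9_10). Atm, Parp1, Rad18 and Rad54l were called each time.

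Other lists moved with the series. Of 19 cell cycle markers 13 were lower in MAR_C3 controls (Mki67 by -0.62, Top2a by -0.60 and Bub1 by -0.50), with a summed level of 275 to 444 CPM against 390 to 502. All 8 choroid plexus markers were higher (Clic6, Slc4a5 and Folr1 led by p), 146 to 2903 CPM against 9.95 to 116. Neuron markers had 4 of 8 lower and 1 higher, with Neurod6 (-0.97), Rbfox3 (-0.30) and Syt1 (-0.21) leading. Radial glia and astrocyte markers had 3 of 8 higher (Hes5, Sox2 and Fabp7) and 1 lower. Exon length went the other way than in CRMP1+CRMP2, with a Spearman's rho of -0.33 over the 36 genes and -0.11 over all genes. Among further lists, erythroid markers had 2 of 8 higher, pineal markers 1 of 2, endothelial markers 1 of 6 higher and 1 lower, microglia markers 1 of 8 lower and oligodendrocyte lineage markers 1 of 7 lower. Series, slice content and handling cannot be told apart here.

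Each gene's slope on the cell cycle marker level, the mean log2 CPM of 19 proliferation genes that include none of the 36, was fitted over 71 animals with series and sex as covariates. Brca1, Ung, Fancd2 and Exo1 had a positive slope past FDR < 0.1, 4 of 36 where 9.1% of 12458 genes had one, and Ercc6 and Xpc a negative slope, 2 of 36 where 7.92% had one. Brca1 had the steepest, a log2 change of 0.88 per unit of marker level (SE = 0.23, FDR = 0.00795), followed by Fancd2 (0.69, SE = 0.22, FDR = 0.0352), Ung (0.68, SE = 0.20, FDR = 0.0213) and Exo1 (0.64, SE = 0.25, FDR = 0.0762). Ercc6 had -0.56 (SE = 0.20, FDR = 0.0536) and Xpc -0.33 (SE = 0.12, FDR = 0.0678). With litter as a random effect Brca1, Fancd2, Ung and Ercc6 were called, and Exo1 and Xpc were not. The 4 genes with positive slopes belong to homologous recombination, base excision, the Fanconi anaemia pathway and mismatch repair, and Ung and Exo1 are known to act at replication forks as well. Polq had a slope of 0.50 with a wide error (SE = 0.48, FDR = 0.553), and none of the 6 end joining genes was called or had p under 0.05. Msh3 (-0.35), Ercc2 (-0.31), Xrcc1 (-0.36) and Rad18 (0.33) had p under 0.05 only. In all, 10 of the 36 repair genes had p under 0.05, and 3300 of the 12458 genes tested had, so these counts lie near those of all genes.

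**Figure D5:**
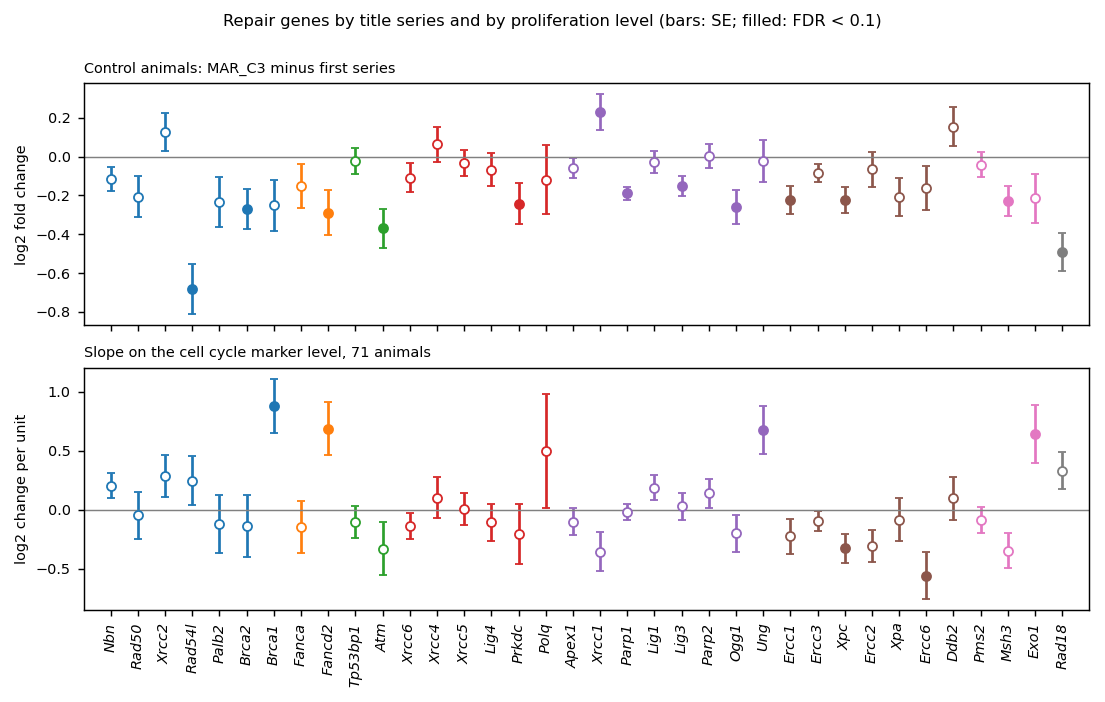
Top, fitted log2 fold change of 36 repair genes between control animals of the MAR_C3 and the first series. Bottom, slope on the cell cycle marker level over 71 animals. Points are fitted values, bars SEs and filled points FDR < 0.1, with 12 filled genes below and 1 above zero at the top, and 4 above and 2 below at the bottom.

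The slopes differed between the series taken alone, a difference that was not tested. In MAR_C3 alone Brca1 (0.90), Ung (0.83) and Fancd2 (0.74) were called, and in the first series alone none was, where Brca1 had 0.31, Fancd2 0.05 and Ung -0.55. The summed marker level spanned 390 to 502 CPM in first-series controls and 275 to 444 in those of MAR_C3. Markers of other cells moved with the same level, with positive slopes for 5 of 8 radial glia and astrocyte, 5 of 8 microglia and 5 of 6 endothelial markers and negative slopes for 2 of 8 neuron markers, among them Vim (1.30), Pax6 (1.17), Trem2 (1.25), Cdh5 (1.07) and Snap25 (-0.37). Their part in the slopes was not tested.

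Females and males differed in no repair gene past the threshold. In 36 females against 35 males none of the 36 repair genes was called by edgeR or DESeq2 (0.0641% of 12477 genes by edgeR), and Parp2 alone had p under 0.05 (log2FC = -0.08, p = 0.0370), as 4.69% of all genes had. Polq had a log2FC of -0.10 (SE = 0.14, p = 0.460).

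How repair genes vary together over animals was taken as a description. After subtracting series means, Pearson's r of log2 CPM over 71 animals had a median of 0.09 over all 630 pairs of the 36 genes and of 0.05 within homologous recombination, -0.01 within end joining, 0.10 within base excision and 0.14 within nucleotide excision repair. The closest pairs crossed pathways, with 0.86 for Atm and Prkdc, 0.82 for Atm and Ercc6 and 0.82 for Prkdc and Ercc6. These 3 genes have 9756, 12752 and 7003 exonic bases and share the libraries. Ercc6, Tp53bp1, Atm, Prkdc and Brca2 had the largest shares of the sum of squares within group and series that lay between litters. These were 0.768, 0.721, 0.695, 0.692 and 0.686, against the median of 0.469 over all genes. As for Polq, such shares are positive even where litters do not differ.

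The 5 genes whose level was most like that of Polq over 71 animals were Lrch3 (r = 0.63), Helz (0.56), Ncoa2 (0.56), Lcor (0.56) and Ceacam1 (0.55), of 12473 compared. Within series, r for Lrch3 was 0.56 in the first and 0.66 in MAR_C3. Among repair genes Prkdc (0.47, rank 185), Fanca (0.46, rank 228) and Tp53bp1 (0.45, rank 325) came closest.

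Other genes of these pathways were set beside the 36 as a list of 131 symbols, of which 105 were tested. In the general comparison and in LDHA/B+CRMP1+STIP1, CRMP1+GDA and STIP1+NSE edgeR called none, where at most 0.0474% of all genes were called. In that order, 8, 5, 3 and 1 of the 105 had p under 0.05, as 10.3%, 7.17%, 3.65% and 3.19% of all genes had. In CRMP1+CRMP2, 4 rose, the resection factor Rbbp8 (log2FC = 0.17), the resolvase Gen1 (0.50), the mediator Mdc1 (0.24) and Shprh (0.26), and 2 fell, the end joining polymerase Poll (-0.23) and the glycosylase Tdg (-0.11), so that 6 of 105 were called where 11.4% of all genes were. In controls of MAR_C3 against the first series 20 were lower, Rbbp8 (-0.31) among them, and 9 higher, among them Faap20 (0.39) and Parp3 (1.03), where 20.2% of all genes were lower and 21.3% higher. On the cell cycle marker level 16 had a positive slope, among them Ube2t (1.22), Clspn (0.85), Bard1 (0.84), Chek1 (0.62) and Rpa1 (0.47), and 5 a negative one, among them Mus81 (-0.62), where 9.1% and 7.92% of all genes had one. The other end joining genes had 0 of 10 called in either direction on this level.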

How the data were processed

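Gene expression was measured by poly-A RNA sequencing in 71 PND2 slices. Per the labels and the study's methods, the authors aligned paired reads to rn7 with STAR 2.5.4b and counted them per gene with featureCounts, and the deposited table holds raw counts for 17494 genes plus 1 column of exon length (unit: other, in bases). Strand and multimapping settings are not given in the sources used here, so reads of overlapping or near-identical genes may be split. Of counts from 1 to 9, 74.5% were even, so a fragment may have been counted per read, and halved counts were tried.

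Counts were tested over all genes with edgeR 4.0.16 (quasi-likelihood, TMM, robust) with 1 surrogate variable from sva 3.50.0, limma 3.58.1 for litter as a random effect, in R 4.3.3, FDR < 0.1 after Benjamini-Hochberg adjustment. Genes needed 1 CPM in 8 animals (all exposed, sex, slope) or over 1 CPM in 2 (patterns and series). RPKM is TMM-scaled CPM per kilobase of exon, and log2 CPM used a prior count of 2. Scripts were tested on simulated data with 200 changed genes. The edgeR fit with a surrogate variable called 229 genes, 198 of them changed. The slope fit called 218, 200 of them changed, and the fit with litter as a random effect 242, 199 of them changed. The simulated counts held no differences between litters. DESeq2 1.42.0 and the alternatives of the closing section were also run. Groups came from the labels and series from the titles, and litters follow the dam given for each animal. No 2 libraries of 1 group agreed within counting noise (closest pair: chi-square per gene of 5.62), and 0 columns lacked a sample.

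The members, gene lists and tests were chosen with earlier results of these data known. Named are Polq throughout, members past FDR < 0.1 or at p under 0.05, the highest and lowest of each pathway, up to 3 genes by p of each other list past the threshold, and the 5 genes most like Polq. Some genes and 1 list that this rule names are not reported here. Promoters shown are those of Polq and of the 2 genes of steepest slope. CPM were compared within the same table only, and a low count such as those of Polq and Exo1 limits precision.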

Additional observations from a re-analysis of the deposited data

Results flagged for a closer look

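A single animal stood apart from its group in 10 of 144 sets, each of 1 of the 36 repair genes in CRMP1+CRMP2 (8 animals), CRMP1+GDA (6), STIP1+NSE (8) or the MAR_C3 animals of LDHA/B+CRMP1+STIP1 (9, with no such set), by the gap to the next animal relative to the range of the group (Dixon's criterion). Chance flags about 1 in 20 such sets. In CRMP1+CRMP2, the highest animal for Brca1 had 10.1 CPM with the next at 6.49, the highest for Xrcc6 29.3 with the next at 24.7, and the highest for Parp2 22.7 with the next at 20.3. The lowest animal for Xrcc4 had 6.99 CPM with the next at 11.6, and the lowest for Xrcc5 16.2 with the next at 20.9. In CRMP1+GDA, the highest animal for Polq had 5.82 CPM with the next at 2.83, the highest for Xrcc1 109 with the next at 75.5, and the lowest for Apex1 61.8 with the next at 82.4. In STIP1+NSE, the highest animal for Apex1 had 92.9 CPM with the next at 82.0, and the lowest for Ercc1 17.2 with the next at 22.7.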

How the results depend on the processing

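Counts of repair genes called at FDR < 0.1 varied with the processing as follows. In the general comparison (0 genes), DESeq2 called 1 and the fit without a filter on low counts 1. In CRMP1+CRMP2 (5 genes) the counts were 3 with title series and sex as covariates, 9 with the first principal components, 1 with the MAR_C3 series alone, 1 with litter as a random effect, 0 with counts summed per litter, 3 without a filter, 0 with the pineal level and 8 with the choroid plexus level in the fit, and 2 without animals with Crx over 1 CPM, the last chosen after seeing the data. Among all genes these fits called 491, 2394, 127, 33, 0, 1263, 1, 1791 and 322 against 1445. Leaving out 1 litter gave 1 to 8 genes in CRMP1+CRMP2, 0 to 1 in STIP1+NSE and 6 to 19 between control series. Between control series (13 genes) a random litter effect gave 5 and sums per litter 5. In the single fit of MAR_C3, DESeq2 called 1 gene in CRMP1+CRMP2. Of slopes on the cell cycle level (6 genes), a random litter effect gave 4, mitosis markers alone 3, the first series alone 0 and MAR_C3 alone 3. Leaving out 1 litter, Polq in CRMP1+GDA had log2 fold changes from -0.016 (without 9_8) to 0.75 (without 9_3), and the slope of Ung turned to -0.55 in the first series alone. Fewer animals enter the fits of 1 series and without litters or animals, and beyond that the cause was not tested. No paired analysis was possible because the numbers in the titles only number animals and pair no exposed with control animals. Low counts of Polq and Exo1 limit what their values can resolve.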

Other observations

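The promoter letters were also set against the slopes on the cell cycle marker level. The 5 repair genes with TTTGAA in the window shown had a median slope of -0.33, and the 26 without it -0.09. For CCAAT the medians were -0.10 in 13 genes and -0.07 in 18 without it. The 2 genes with the E2F letters, Atm and Fancd2, had slopes of -0.33 and 0.69. These are descriptions of 31 genes with no test.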
